A study of Mus musculus with 6 samples.

Results

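Usp8 and 6 genes whose proteins act with it on endosomes, Hgs, Stam, Stam2, Stambp, Ptpn23 and Rnf41, were followed as mRNA in RAW264.7 cells. They were chosen by name, as the rows of both deposited tables whose gene symbol matched, and all 7 were found among 55291 symbols. RAW264.7 is an established mouse macrophage-like line, with ascites as its labelled source, that fuses into osteoclasts when given RANKL. The shUSP8 group (n = 3) received a short hairpin against Usp8 and carries the genotype label of a USP8 knock down. The shCtrl group (n = 3) received a control hairpin and is labelled WT. The cells of all 6 libraries, of both groups, had been given RANKL at 50 ng/mL for 4 days. The study concerns USP8 and the mitochondria of osteoclasts, and its design sets cells with little Usp8 mRNA against cells with the usual level. The labels give neither the hairpin sequences nor the number of hairpins or cell clones, and they do not say whether replicate libraries are separate cultures. The p-values then reflect library-to-library spread alone, which may be technical.

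Membrane receptors tagged with ubiquitin are taken from the cell surface into endosomes, where the ESCRT machinery sorts them into vesicles bound for the lysosome. HGS and a STAM protein form ESCRT-0, the first complex of that chain, which binds the ubiquitin tag. USP8 and STAMBP are deubiquitinases that compete for the same domain of the STAM proteins and can remove the tag. Osteoclasts depend on endosomes and lysosomes for the acid and proteases with which they resorb bone.

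Library totals lay between 19973522 and 20213939 expected counts. Of 10 osteoclast markers, all passed the count filter, 5 fell and none rose, and of 7 macrophage markers 4 rose and 3 fell (edgeR, adjusted p under 0.05). Of all 12440 genes tested, 17.8% rose and 14.9% fell. The osteoclast markers summed to 11208 to 11562 CPM in shUSP8 and 13487 to 13912 CPM in shCtrl. The macrophage markers summed to 6325 to 6912 CPM in shUSP8 and 4933 to 5120 CPM in shCtrl. Lyz2, 1 of the 4 that rose, weighs heavily in that sum (2699 ± 168 CPM in shUSP8, 853 ± 20.5 CPM in shCtrl). The 3 that fell were Csf1r, Cd68 and Spi1 (log2 fold change -0.19, -0.36 and -0.26), so the sum does not show a rise of the whole set. The part of both marker sets in the results below was not tested. In bulk samples, fewer cells of a type and less RNA per cell cannot be told apart. Other cell types were scarce. None of 6 lymphocyte markers and none of 4 epithelial markers passed the filter, 4 of 9 stromal markers passed it without a call, and 1 of 7 neutrophil markers (S100a8) passed it and was called higher. The library shUSP8_2 had a mean fragment length of 368.3 nt, against 301.3 ± 6.30 nt (SD) over the other 5. The results on Stam, which shUSP8_2 touches most, are also given without it. The shUSP8 libraries also differed more among themselves. The mean chi-square per gene between 2 libraries of a group was 8.42 to 18.27 in shUSP8 and 2.265 to 6.51 in shCtrl.

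Of the 7 genes, 5 were called different between the groups, Usp8 itself and 4 of its 6 partners, where 32.8% of the 12440 genes tested were called (edgeR quasi-likelihood test, Benjamini-Hochberg adjusted p under 0.05). Hgs, Stam2 and Ptpn23 rose by 15.1% to 24.3%, Stam fell by 14.3%, and Stambp and Rnf41 did not pass the test. The partners had a median log2 fold change of 0.10, against -0.005 over all genes tested. Their normalised counts did not overlap between the groups in 5 of 6 cases, where 47.7% of all genes tested did not overlap. The 3 that rose were higher in every shUSP8 library, as were 24.6% of all genes tested, and Stam and Stambp were lower in every shUSP8 library, as were 23.1%.

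**Figure D1:**
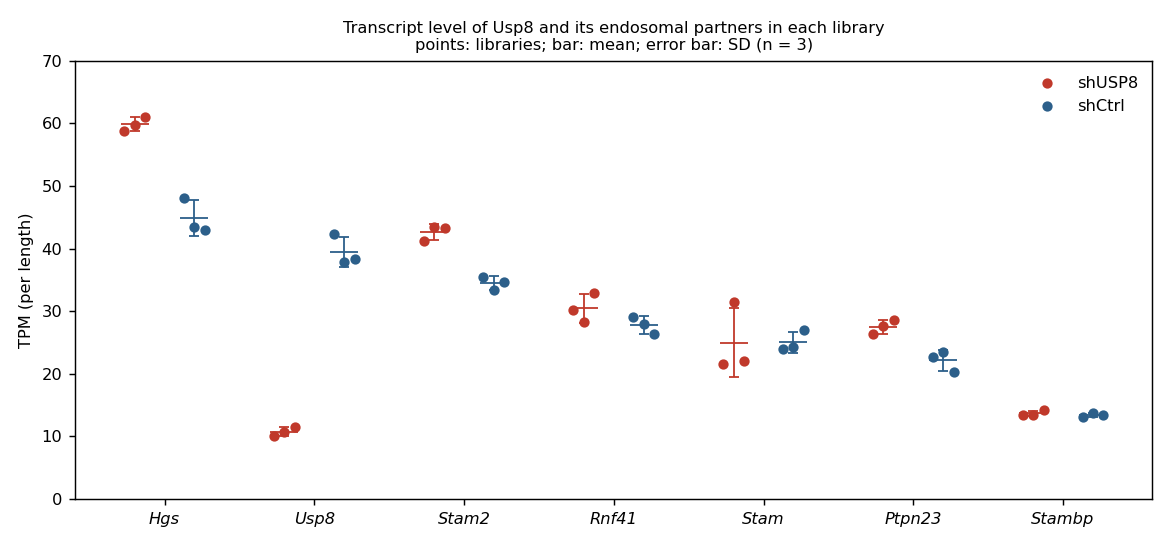
Transcript level (TPM, a value per transcript length) of the 7 genes in each library, ordered by the shCtrl mean. Points are libraries (shUSP8 left, shCtrl right of each pair), horizontal bars are means and error bars are SD (n = 3). Usp8 lies near 11 TPM in shUSP8 and near 39 TPM in shCtrl, while no partner differs by as much.

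Usp8, the target of the hairpin, encodes the deubiquitinase of endosomes on which the study turns. The gene is on the plus strand of chromosome 2, from 126707328 to 126759297 (GRCm38). Its expected counts were 656, 720 and 718 in shUSP8, against 2785, 2561 and 2645 in shCtrl. All 3 shUSP8 libraries were low, and no shUSP8 library came near a shCtrl library. Taking the shCtrl mean as the whole, 23.6%, 25.6% and 25.8% of the CPM value remained in shUSP8_1, shUSP8_2 and shUSP8_3. On the TPM scale, the remaining shares were 25.3%, 27.1% and 29.2%. The fitted log2 fold change was -2.00 (SE 0.06, edgeR adjusted p = 1.47e-10), and it lay between -2.03 and -1.79 over 19 other settings, each of which called it.

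That fall stood near the end of the range of expressed genes. Of the 8926 genes whose mean log2 CPM reached 3, only 2 had a lower fitted log2 fold change. The gene most like Usp8 in its profile over the 6 libraries was Rgs16, a brake on G protein signals, at a Euclidean distance of 0.421 on the log2 CPM scale, with 8634 genes compared. Next came Tubb2b, a beta-tubulin (distance 0.807), and Sorbs2, an actin adaptor (0.895). The histone genes H2bc21 (1.35) and H3c15 (1.39), which have near-identical copies and uncertain counts, followed. Rgs16 averaged 11.9 ± 0.603 CPM in shUSP8 and 43.4 ± 5.45 CPM in shCtrl. The distance was taken after subtracting the shCtrl mean of each gene, so it mostly ranks genes by a log2 fold change near that of Usp8. The 6 partners, with log2 fold changes from -0.22 to 0.31, could not be among these 5 genes.

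The annotation places another protein-coding gene, Usp50, across Usp8 on the opposite strand. The strand setting of the counting is not given in the sources used here. Usp50 had at most 2.27 expected counts in a shUSP8 library and at most 6.68 in a shCtrl library, far below Usp8 in every library. No transcript of another gene matched a transcript of Usp8, Hgs, Ptpn23 or Rnf41 at 90% identity or more over at least 100 nt, leaving aside an overlapping annotated gene on the same strand that is also named Hgs. Stam had such matches to 470 other genes (median length 141 nt, longest 326 nt) and Stambp to 89 (median 128 nt, longest 174 nt), so that reads from these stretches are uncertain. Stam2 had 1, to the pseudogene Gm13548 over 293 nt, which had 0 counts in every library.

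Hgs encodes the subunit of ESCRT-0 that binds both ubiquitin and the lipid of early endosomes, and it had the highest TPM of the 7 genes in both groups. It lies on chromosome 11 at 120467635 to 120483979, plus strand. Its expected counts were 2615, 2690 and 2573 in shUSP8, against 2049, 1990 and 2011 in shCtrl. Each shUSP8 library lay above each shCtrl library. Hgs averaged 127.7 ± 2.10 CPM in shUSP8 and 102.7 ± 1.89 CPM in shCtrl (SD, n = 3 each). The log2 fold change was 0.31 (SE 0.05, edgeR adjusted p = 0.000269). The rise of Hgs was called under all 19 other settings, with log2 fold changes of 0.29 to 0.42 and adjusted p of 2.19e-06 to 0.00946. Of all genes tested, 15.2% had a higher log2 fold change.

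Of the pair of genes for the other ESCRT-0 subunit, Stam2 was called higher and Stam lower on counts, and the Stam call did not hold on the TPM scale or with effective-length offsets (adjusted p = 0.578). Stam2 lies on chromosome 2 at 52691664 to 52742281, minus strand, and Stam on the same chromosome at 14074098 to 14149634, plus strand. The 2 proteins are close relatives, each with a ubiquitin-interacting motif and the domain that USP8 and STAMBP share as a docking site. Stam2 had 1724, 1839 and 1769 expected counts in shUSP8, against 1442, 1389 and 1442 in shCtrl. It was higher in every shUSP8 library than in any shCtrl library. Its log2 fold change was 0.25 (SE 0.05, edgeR adjusted p = 0.00228). The Stam2 call held in 18 of 19 other settings. The exception was effective-length offsets, where each count is corrected for the length of the transcripts behind it and 22.1% of genes were called (log2 fold change 0.18, adjusted p = 0.0563).

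Stam had 663, 797 and 745 expected counts in shUSP8, against 778, 796 and 880 in shCtrl. After scaling, these were 32.4, 38.5 and 36.4 CPM in shUSP8 and 39.4, 40.2 and 45.5 CPM in shCtrl, so that the groups did not overlap but shUSP8_2 and shCtrl_1 lay close together. The fall was barely past the threshold (log2 fold change -0.22, SE 0.08, edgeR adjusted p = 0.0490). The Stam call was kept in 7 of 19 other settings, over which the adjusted p lay between 0.00782 and 0.954. Leaving out 1 library kept it only without shUSP8_2 (-0.28, adjusted p = 0.0187). The adjusted p was 0.0560 without shCtrl_1, 0.0850 without shCtrl_2, 0.2004 without shCtrl_3, 0.113 without shUSP8_1 and 0.107 without shUSP8_3. DESeq2 gave Stam an adjusted p of 0.0747 and called 26.1% of all genes, and limma-voom gave 0.0651 and called 32.0%. On log2(TPM + 1) Stam was at -0.02 (adjusted p = 0.929), beside a shift of 0.11 for the median gene on that scale.

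The TPM values of Stam were 21.6, 31.4 and 21.99 in shUSP8, against 23.9, 24.2 and 26.9 in shCtrl. Here the highest library was shUSP8_2, although its count (797) was next to that of shCtrl_2 (796), and the groups overlapped. Dividing the expected count by the TPM value gives the mean length of the transcripts to which the reads were assigned, weighted by abundance. For Stam this length was 2093, 1794 and 2393 nt in shUSP8 and 2198, 2164 and 2115 nt in shCtrl. The 9 annotated Stam transcripts run from 386 to 5000 nt, so the reads of shUSP8_2 were assigned to shorter ones. For Stam2 the length was 2748, 2745 and 2824 nt in shUSP8, against 2673, 2665 and 2610 nt in shCtrl. The shUSP8 values were the longer in each case, as they were for 6.33% of 9559 tested genes that have several transcripts and at least 1 TPM in each library, while 5.94% were shorter in every shUSP8 library. Usp8 was the other gene of the 7 whose lengths did not overlap, where 12.3% of those genes did not. The Usp8 lengths were 4143 to 4146 nt in shUSP8 and 4133 to 4140 nt in shCtrl. The error of these scaled lengths was not estimated, so this small gap is not read as a change of transcripts. Of the 3 annotated Usp8 transcripts, the protein-coding ones measure 4154 and 4145 nt, and a processed transcript measures 3463 nt.

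**Figure D2:**
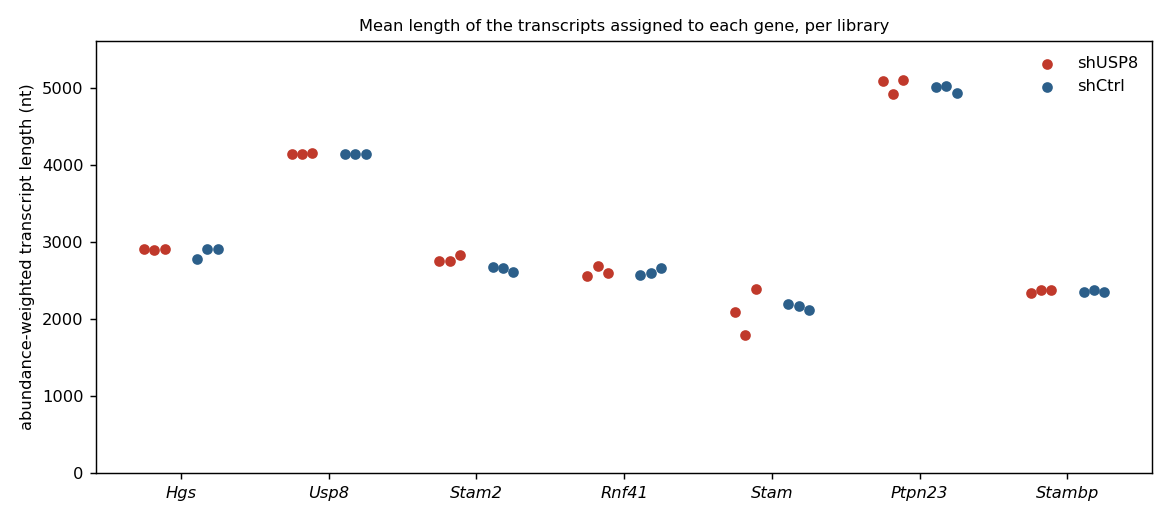
Abundance-weighted transcript length in nt of each gene, 1 point per library (shUSP8 left, shCtrl right of each pair). Stam spreads from 1794 to 2393 nt within shUSP8, Stam2 is longer in the 3 shUSP8 libraries than in the 3 shCtrl libraries, and Hgs has 1 low shCtrl library (shCtrl_1, 2781 nt).

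Within the ESCRT-0 genes, Stam2 made up 65.6%, 58.1% and 66.3% of the summed TPM of Stam and Stam2 in shUSP8, against 59.7%, 57.9% and 56.3% in shCtrl. The groups overlapped through shUSP8_2 (two-sided exact permutation p = 0.2, and 0.2 adjusted over 4 shares). From expected counts, the share of Stam2 was 70.8% ± 1.282 in shUSP8 and 63.5% ± 1.43 in shCtrl, without overlap (exact permutation p = 0.1, and no smaller p is possible with 3 libraries a group). Hgs took 47.0% ± 2.29 of the TPM of the 3 ESCRT-0 genes in shUSP8 and 43.0% ± 1.86 in shCtrl (exact permutation p = 0.2). Without shUSP8_2 the difference was 8.002 percentage points for the Stam2 share, against 5.37 with it, and 5.40 points for the Hgs share, against 4.08 with it.

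Ptpn23 encodes a phosphatase-like protein with a BRO1 domain that binds ESCRT proteins and helps hand receptors on from ESCRT-0. It lies on chromosome 9 at 110385082 to 110408213, minus strand. Its expected counts were 2150, 2240 and 2217 in shUSP8, against 1836, 1958 and 1687 in shCtrl. The groups did not overlap, and the shCtrl libraries spread more widely than the shUSP8 libraries. The log2 fold change was 0.20 (SE 0.06, edgeR adjusted p = 0.0142). The Ptpn23 call was lost without shCtrl_1 (adjusted p = 0.0513), shCtrl_3 (0.0642) or shUSP8_3 (0.0551) and on log2(TPM + 1) with no filter (0.0515). Over the 19 other settings its adjusted p lay between 0.00398 and 0.0642, and its log2 fold change between 0.16 and 0.31.

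The bases before the starts of the 3 partner genes that rose are shown, and these genes were picked for that rise. A shared cause was not tested. Each sequence is from RefSeq (GRCm38.p6), on the strand of the gene, and stops before the outermost annotated start. It is in lower case, with capitals where a searched motif matched on either strand. Hgs is shown at chr11:120467385-120467634, Stam2 at chr2:52742282-52742399 and Ptpn23 at chr9:110408214-110408460.
Hgs: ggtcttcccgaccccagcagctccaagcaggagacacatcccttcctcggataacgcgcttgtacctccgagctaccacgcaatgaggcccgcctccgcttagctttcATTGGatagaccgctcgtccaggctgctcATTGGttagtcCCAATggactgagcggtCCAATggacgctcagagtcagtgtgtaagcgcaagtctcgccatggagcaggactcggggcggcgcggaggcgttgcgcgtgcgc
Stam2: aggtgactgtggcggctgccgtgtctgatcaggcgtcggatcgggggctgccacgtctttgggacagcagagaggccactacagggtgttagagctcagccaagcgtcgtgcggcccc
Ptpn23: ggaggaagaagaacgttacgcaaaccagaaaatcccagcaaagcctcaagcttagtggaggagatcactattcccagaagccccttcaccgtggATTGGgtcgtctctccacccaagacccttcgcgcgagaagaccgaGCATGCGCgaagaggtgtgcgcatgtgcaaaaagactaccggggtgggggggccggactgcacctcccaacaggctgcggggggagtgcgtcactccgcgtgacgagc

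The motifs, searched in the 250 bases before the RefSeq start of each gene, were CCAAT (the box bound by NF-Y), CACGTG (the E-box), CCGGAAG (an ETS core), GCATGCGC (an NRF1 core) and the core of the interferon-stimulated response element. Hgs holds 4 matches to CCAAT, 2 on each strand, where 0.92% of 27025 promoters hold at least 4. Ptpn23 holds 1 match to CCAAT, which 34.46% of promoters hold, and 1 to GCATGCGC, which 2.32% hold. Usp8 holds 2 matches and Rnf41 1 match to CCGGAAG (7.05% of promoters), and Stambp 1 match to CCAAT. Only 25 of the 250 bases of Stambp and 118 of those of Stam2 lie before the outermost annotated start. The Stambp match, at -48 from the RefSeq start, lies past that outermost start. The letters of CACGTG (6.05% of promoters) and of the interferon-stimulated core (3.04%) are in none of the 7 windows, and none of the 5 motifs matched in Stam or Stam2. A match is a run of letters and does not show that a factor binds there. The motifs were picked with the sequences in view, so these percentages do not measure how unusual the matches are.

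Stambp encodes AMSH, the metalloprotease that competes with USP8 for the STAM proteins. It was the lowest of the 7 genes in shCtrl. It lies on chromosome 6 at 83543211 to 83572729, minus strand, and had 469, 480 and 475 expected counts in shUSP8, against 460, 503 and 493 in shCtrl. In CPM it was 23.1 ± 0.170 in shUSP8 and 24.7 ± 1.24 in shCtrl, and shCtrl_1 (23.3) lay closer to the 3 shUSP8 libraries than to the other 2 shCtrl libraries. The difference did not pass the test (log2 fold change -0.10, SE 0.07, edgeR adjusted p = 0.277), and its sign changed on log2(TPM + 1), where it was 0.02. A pseudogene within its introns, Gm18537, had 73.1 to 102.4 expected counts in shUSP8 and 30.4 to 65.7 in shCtrl.

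Rnf41 encodes an E3 ligase, also called Nrdp1, that attaches ubiquitin to receptors such as ERBB3 and is itself protected by USP8. It lies on chromosome 10 at 128411657 to 128441441, plus strand. Its expected counts were 1166, 1166 and 1223 in shUSP8, against 1135, 1131 and 1116 in shCtrl. In CPM the groups overlapped, at 57.6 ± 1.83 in shUSP8 and 57.4 ± 0.261 in shCtrl. The log2 fold change was 0.01 (SE 0.05, edgeR adjusted p = 0.951), and it was called in none of the 19 other settings. Its sign changed without shUSP8_3 (-0.02) and without the filter on low counts, and it reached 0.13 on log2(TPM + 1), close to the shift of 0.11 of all genes there.

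**Figure D3:**
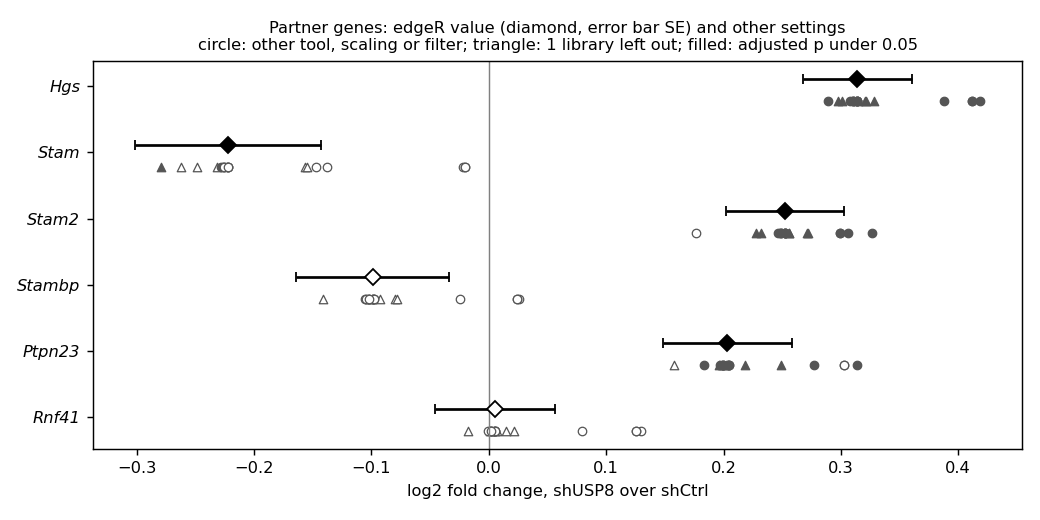
Log2 fold change (shUSP8 over shCtrl) of the 6 partner genes: edgeR value with SE (diamond) and 19 other settings below it (circles for another tool, scaling or filter, triangles for 1 library left out), filled where the adjusted p was under 0.05. Hgs is filled throughout, Stam2 in 18 settings and Ptpn23 in 15, while Stam is filled in 7 and Stambp and Rnf41 in none.

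The balance of Usp8 with its competitor and with its ligase partner was read as shares of TPM within each library. Usp8 is the target of the hairpin and neither Stambp nor Rnf41 was called, so both shares restate the fall of Usp8. An exact permutation p of 0.1 is the smallest possible with 3 libraries a group. In shUSP8, Usp8 made up 42.7%, 44.4% and 44.9% of the summed TPM of Usp8 and Stambp, against 76.3%, 73.3% and 74.2% in shCtrl. Stambp was thus the more abundant deubiquitinase transcript in each shUSP8 library and Usp8 in each shCtrl library. The means were 44.0% ± 1.19 in shUSP8 and 74.6% ± 1.57 in shCtrl (exact permutation p = 0.1, and 0.2 adjusted over 4 shares). On raw expected counts, which favour the longer Usp8 transcript, the share of Usp8 was 59.5% ± 1.03 in shUSP8 and 84.6% ± 1.15 in shCtrl. Against Rnf41, Usp8 took 26.1% ± 1.34 of the summed TPM in shUSP8 and 58.7% ± 0.998 in shCtrl (exact permutation p = 0.1, and 0.2 adjusted over 4 shares).

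Ordered by mean TPM, the genes in shUSP8 ran Hgs (59.9), Stam2 (42.7), Rnf41 (30.4), Ptpn23 (27.5), Stam (25.0), Stambp (13.7) and Usp8 (10.7). In shCtrl the order was Hgs (44.8), Usp8 (39.5), Stam2 (34.5), Rnf41 (27.8), Stam (25.0), Ptpn23 (22.2) and Stambp (13.4). Usp8 was thus second in shCtrl and last in shUSP8. Neighbours with overlapping ranges were Rnf41 with Ptpn23 and Ptpn23 with Stam in shUSP8, and Rnf41 with Stam in shCtrl. The other neighbours did not overlap between their 3 libraries.

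Around these genes, 85 others of the same pathway were read from 9 lists, of which 72 passed the count filter. Of the 72, 12 rose and 15 fell, or 16.7% and 20.8%, against 17.8% and 14.9% of all genes tested, with a median log2 fold change of -0.02. These lists were written with earlier results of these data known. The number that fell was 8 without shCtrl_2 or shUSP8_3 and 2 on log2(TPM + 1).

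Of 8 ESCRT-I genes tested, 2 rose and none fell (median log2 fold change 0.03), where 17.8% of all genes tested rose and 14.9% fell. Without shUSP8_1 or without the filter on low counts, 1 ESCRT-I gene was called lower. The 2 that rose were Mvb12b and Vps37b. Mvb12b, an accessory subunit, averaged 45.9 ± 0.931 CPM in shUSP8 and 36.5 ± 3.84 CPM in shCtrl (log2 fold change 0.33, SE 0.08, edgeR adjusted p = 0.00518). Vps37b, another subunit, was at 0.23 (SE 0.07, adjusted p = 0.0322). Tsg101, the ESCRT-I subunit that binds HGS, was at -0.17 (adjusted p = 0.0647). Vps37b kept its call only without shUSP8_2 when 1 library was left out (adjusted p = 0.0595 without shCtrl_1, 0.0560 without shCtrl_2, 0.127 without shCtrl_3, 0.0548 without shUSP8_1 and 0.104 without shUSP8_3). Of 3 ESCRT-II genes, 1 fell, Vps25 (-0.17, SE 0.06, adjusted p = 0.0381). Vps25 kept its call only without shUSP8_1 (adjusted p = 0.131 without shCtrl_1, 0.0728 without shCtrl_2, 0.0855 without shCtrl_3, 0.0948 without shUSP8_2 and 0.126 without shUSP8_3).

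Of 14 genes of ESCRT-III, which cuts the vesicle neck, and of the VPS4 ATPase that recycles it, 5 fell and 1 rose (median log2 fold change -0.12). Of all genes tested, 14.9% fell and 17.8% rose. Chmp1b averaged 67.8 ± 0.454 CPM in shUSP8 and 83.8 ± 4.34 CPM in shCtrl (-0.31, SE 0.05, edgeR adjusted p = 0.000866). Chmp2a fell by 0.25 (SE 0.05) and Vps4a by 0.23 (SE 0.06), and Chmp7 rose by 0.20 (SE 0.06) on the log2 scale. The number that fell was 3 without shCtrl_2 or shUSP8_3 and 0 on log2(TPM + 1). Without shUSP8_3 Vps4a lost its call (adjusted p = 0.0570), and Chmp7 lost it without shCtrl_1 (0.0671) or shCtrl_2 (0.0657). Among 3 other BRO1 domain genes tested, the ESCRT-III partner Pdcd6ip, or ALIX, was at -0.05 (adjusted p = 0.456). Rhpn2, at 1.48 ± 0.0652 CPM in shUSP8 and 2.40 ± 0.230 CPM in shCtrl, fell by 0.70 (SE 0.19), a call lost without shCtrl_2 (adjusted p = 0.0515), shCtrl_3 (0.0617) or shUSP8_3 (0.0512). The number that fell was 2 among these BRO1 genes without shUSP8_2, and 2 among the ESCRT-II genes without shUSP8_1.

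**Figure D4:**
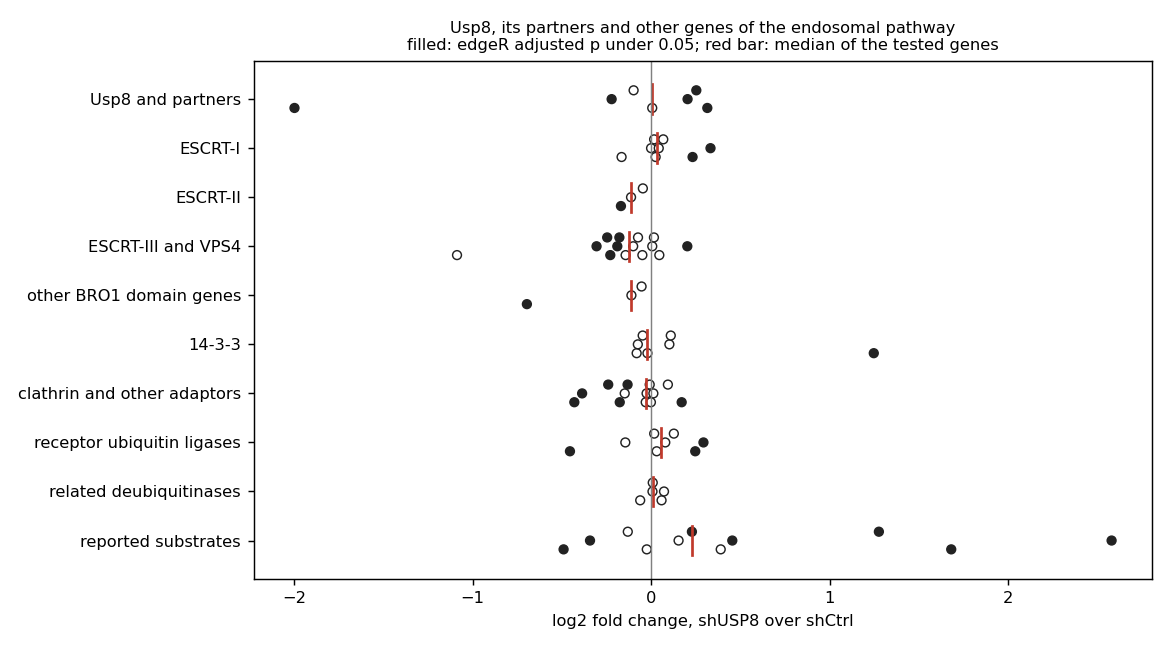
Log2 fold change (shUSP8 over shCtrl) of the 7 genes and of the 72 tested genes of 9 pathway lists, 1 point per gene, filled where the edgeR adjusted p was under 0.05. Red bars are medians of the tested genes of a list. The medians of the lists lie between -0.12 and 0.23, and Usp8 (-2.00) and Cxcr4 (2.58) are the outermost points.

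Clathrin and the other adaptors that gather ubiquitinated receptors had 5 of 13 genes lower and 1 higher (median log2 fold change -0.03). Over all genes tested, 14.9% were lower and 17.8% higher. Tollip, an adaptor that also dampens Toll-like receptor signals, averaged 128.0 ± 9.41 CPM in shUSP8 and 172.5 ± 4.00 CPM in shCtrl (-0.43, SE 0.06). Cltb, a clathrin light chain, fell by 0.39 (SE 0.05) and Tom1l2 by 0.24 (SE 0.06), while the heavy chain Cltc was at -0.03 (adjusted p = 0.814). Tollip and Cltb were called under all 19 other settings. Tom1l2 was not called with library totals (adjusted p = 0.0578) or on log2(TPM + 1) (-0.13, adjusted p = 0.335). The number that fell was 3 without shCtrl_2, shCtrl_3 or shUSP8_3 and with effective-length offsets, and 2 with library totals and on each TPM scale. Gga3 rose by 0.17 (SE 0.06, edgeR adjusted p = 0.0338), but it was at -0.31 on log2(TPM + 1) and at -0.52 with effective-length offsets. Gga3 lost its call without shCtrl_1 (adjusted p = 0.0962), shCtrl_3 (0.132), shUSP8_1 (0.0501) or shUSP8_3 (0.0806).

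The ligases that tag receptors had 2 of 8 tested genes higher and 1 lower (median log2 fold change 0.05). Over all genes tested, 17.8% were higher and 14.9% lower. Marchf8, which sends immune receptors to the lysosome, averaged 72.8 ± 2.03 CPM in shUSP8 and 59.4 ± 1.62 CPM in shCtrl (0.29, SE 0.05), and Smurf1 rose by 0.25 (SE 0.06). Smurf1 was not called with effective-length offsets (adjusted p = 0.0650), which left 1 ligase higher, and without shUSP8_2 the number lower was 2. Nedd4l fell by 0.46 (SE 0.15) to 4.57 ± 0.705 CPM in shUSP8, against 6.27 ± 0.836 CPM in shCtrl. Its sign changed on log2(TPM + 1) (0.34) and with effective-length offsets (0.30), and its call was lost without shCtrl_2 (adjusted p = 0.0552), shCtrl_3 (0.141) or shUSP8_3 (0.126). Cbl (0.13, adjusted p = 0.2001) and Cblb (0.08, adjusted p = 0.382), ligases of the receptors EGFR and CSF1R, did not pass the test.

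Genes for 14-3-3 proteins, which bind phosphorylated USP8 and hold it inactive, numbered 7. Of these, 1 rose and none fell (median log2 fold change -0.02), where 17.8% of all genes tested rose and 14.9% fell. The number that rose was 3 with library totals and 2 on each TPM scale, and without shUSP8_1 1 was called lower. The gene that rose was Sfn, at 1.38 ± 0.124 CPM in shUSP8 and 0.577 ± 0.114 CPM in shCtrl (1.25, SE 0.27, edgeR adjusted p = 0.00372), the least abundant of the 7. None of 5 tested deubiquitinases related to USP8 or STAMBP was called by edgeR, DESeq2 or limma-voom, and 0 had an unadjusted p under 0.05 by edgeR. Stambpl1, the closest relative of Stambp, was at 69.9 ± 3.27 CPM in shUSP8 and 66.5 ± 1.501 CPM in shCtrl (0.07, adjusted p = 0.339), and Psmd14 was at 0.06 (adjusted p = 0.398). Psmd14 was called higher on log2(TPM + 1) (0.19, adjusted p = 0.0459) and on log2(TPM + 0.1) (adjusted p = 0.0472).

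Reported substrates of USP8, STAMBP or RNF41 had log2 fold changes from -0.49 to 2.58. Of 11 tested of 19, 5 rose and 2 fell (median log2 fold change 0.23), where 17.8% of all genes tested rose and 14.9% fell. Cxcr4, a chemokine receptor whose sorting at endosomes involves USP8, averaged 26.5 ± 2.11 CPM in shUSP8 and 4.43 ± 0.346 CPM in shCtrl (2.58, SE 0.10, edgeR adjusted p = 1.59e-09), with each shUSP8 library above each shCtrl library. Met, the receptor for hepatocyte growth factor, was at 3.79 ± 0.875 CPM in shUSP8 and 1.57 ± 0.360 CPM in shCtrl (1.275, SE 0.23), and it was not called with effective-length offsets (adjusted p = 0.0770) or on log2(TPM + 1) (0.0846). Cd274, or PD-L1, rose by 0.45 (SE 0.07). Smo, at 1.27 ± 0.385 CPM in shUSP8 and 0.390 ± 0.144 CPM in shCtrl (1.68, SE 0.35), and Myd88 (0.23, SE 0.07) also rose. Tgfbr2, a receptor for TGF-beta, fell by 0.34 (SE 0.05) and Fzd5, a Wnt receptor, by 0.49 (SE 0.10). On log2(TPM + 1) neither was called, with Tgfbr2 at -0.21 (adjusted p = 0.0799) and Fzd5 at -0.17 (0.335), and Fzd5 was not called with effective-length offsets (0.116). Erbb3, the substrate for which RNF41 is best known, was at 0.15 (adjusted p = 0.150). These are transcript levels, and protein levels, on which these enzymes act, were not measured.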

How the data were processed

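RNA of 3 shUSP8 and 3 shCtrl libraries was read as 150 bp paired ends on DNBSEQ, per the labels' protocols. The authors deposited estimated counts (expected counts) and TPM values per gene. RSEM, DESeq2 1.28.1 and mm10 are named in the submitters' processing notes, and the counting settings are not given in the sources used here. The deposited columns are named KO and WT; KO was read as shUSP8, the only knock down among the labels. Of the expected counts 7.16% were not whole, and all were rounded. Library totals lay between 19973522 and 20213939.

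Genes were filtered with filterByExpr (minimum count 10, minimum total 15), scaled by TMM and tested with edgeR 4.0.16 (R 4.3.3, robust quasi-likelihood fit without covariates), with Benjamini-Hochberg adjustment over 12440 genes and a threshold of 0.05. CPM values use the TMM-scaled totals. The SE of a log2 fold change is its size divided by the square root of the F statistic. Shares were compared by two-sided exact permutation tests. DESeq2 1.42.0, limma 3.58.1 (voom, and log2(TPM + 1) or log2(TPM + 0.1)), other scalings and filters, a replicate block and leaving out each library were the alternatives.

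Positions come from GENCODE M21 (GRCm38), in which 99.14% of the 142604 deposited transcripts were found by unversioned identifier. Promoter sequences of all 7 genes were matched by symbol in RefSeq (GRCm38.p6). Transcript lengths were scaled from the ratio of count to TPM, using genes of at least 5 TPM and 1000 nt, and copies were sought with blastn 2.17.0.

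The members and lists were chosen with earlier results of these data known, and the motifs with the sequences in view. Of each list the called genes with the smallest p were named, at most 3 in each direction, or the 2 highest by CPM where none was called, besides the 5 genes nearest to Usp8 and genes overlapping a member. Tsg101, Pdcd6ip, Cltc, Cbl, Cblb, Erbb3, Smo, Myd88, S100a8, Lyz2, Csf1r, Cd68 and Spi1 were named after their values were seen.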

Additional observations from a re-analysis of the deposited data

How the results depend on the processing

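The direction and call of Usp8 and Hgs were the same in all 19 other settings. Against 3 higher and 2 lower among the 7 genes, 1 was called lower with DESeq2, limma-voom, library totals, effective-length offsets and the 3 TPM settings, and leaving out 1 library gave 2 to 3 higher and 1 to 2 lower. The cause was not tested. The log2 fold change of Stambp reversed to 0.0256 on log2(TPM + 0.1) and to 0.0241 on log2(TPM + 1) with and without the filter. That of Rnf41 reversed to -0.0007 without the filter on low counts, and it lay between -0.0181 (without shUSP8 replicate 3) and 0.0216 with 1 library left out.

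Of all genes, 1859 were called lower, against 1226 with effective-length offsets, 1172 with library totals, 493 on log2(TPM + 0.1), 499 on log2(TPM + 1) and 380 on log2(TPM + 1) without the filter. Leaving out 1 library gave 1675 to 2349 higher and 1239 to 2077 lower, the lowest of each without shCtrl replicate 2. The highest of each came without shUSP8 replicate 1. Calls were 54.4% higher, against 72.6% with library totals and 82.4% on log2(TPM + 1), where the median of all genes moved by 0.11. Of the other pathway genes, 7 were called higher with effective-length offsets, and 7 were called lower with library totals and 2 on each TPM scale. Leaving out 1 library gave 9 to 12 higher and 8 to 19 lower. Gga3 reversed to -0.52 with effective-length offsets, -0.32 on log2(TPM + 0.1) and -0.31 on log2(TPM + 1) with and without the filter, and Nedd4l to 0.30, 0.43 and 0.34. Of 342 list counts under other settings, 260 stayed within 1.5 times.

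Leaving out 1 library, the Stam2 share differed by 3.88 to 8.002 percentage points, the Hgs share by 3.14 to 5.40, and the Usp8 share by -31.3 to -29.7 against Stambp and by -33.3 to -31.9 against Rnf41. Equal replicate numbers did not pair the libraries (correlations of deviations -0.007, 0.078 and -0.054). With the replicate block, 3 members were called higher and 2 lower, Stam with an adjusted p of 0.0399 and Ptpn23 with 0.0220, and 2021 genes higher and 1690 lower. An exact sign-flip test of each share over the numbered pairs gave p = 0.25, the smallest 3 pairs can give.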
